A study of Rattus norvegicus with 6 samples.

Results

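Collagen transcripts of the fibrils and of the basement membrane were examined in rat tibialis anterior, the main dorsiflexor muscle of the lower leg, after nerve repair. The members were every probe set annotated with 1 of 10 gene symbols (Col1a1, Col1a2, Col3a1, Col5a1, Col5a2, Col4a1, Col4a2, Col15a1, Col18a1 and Col12a1), which are 10 of the 10411 genes named on the array and gave 17 of its 15923 probe sets. The rule names genes and uses no measured value, but the genes were chosen with earlier results of these data known. The animals were 3 male Wistar rats, 8 weeks old, numbered 4, 5 and 6. In each, the peroneal nerve was cut and sutured to the biceps femoris muscle, its proximal and distal stumps were joined 4 weeks later, and the rat then lived on for 8 weeks. Surgery was done under ketamine and xylazine, which both muscles of an animal therefore share. The ipsilateral muscle and the contralateral muscle of each rat gave 1 array each, 3 per group. The contralateral muscle belongs to an operated animal, and muscle of unoperated rats was not analysed here.

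Collagens are trimers of chains wound into a triple helix. Types I and III form most of the fibrils of muscle connective tissue, and type V is built into the same fibrils and helps set their diameter. Type IV forms the sheet-like network of the basement membrane that wraps every muscle fibre, capillary and Schwann cell, while types XV and XVIII sit at basement membranes and release antiangiogenic fragments (endostatin from type XVIII). Type XII lies on the surface of fibrils and links them to neighbouring matrix. In muscle most fibrillar collagen is made by interstitial fibroblasts, and type IV by muscle fibres, fibroblasts and blood vessel cells.

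The genes of the 2 main type IV chains lie head to head and are transcribed away from each other. Their starts in the RefSeq promoter table (GRCr8), which held 7 of the 10 genes, are 76 bases apart. The stretch between them is shown because the levels of this pair were the most closely correlated among the basement membrane collagens. It lies at chr16:84885521-84885596, plus strand, with Col4a2 leaving to its left and Col4a1 to its right, and capitals mark the motif GGGCGG, the GC box, here on the minus strand.
Col4a2-Col4a1 gap: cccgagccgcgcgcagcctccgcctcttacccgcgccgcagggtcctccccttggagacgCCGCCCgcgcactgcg
The motif, searched on both strands, was present in 18.1% of the 33469 windows of 76 bases before the starts of all genes in the table. Those windows had a median of 53.9% G or C, against 78.9% in this stretch, so they are not matched to it in base content. CCAAT and TATAAA, searched in the same way, were not among the letters of this stretch. In the 250 bases before the start, GGGCGG was found in 4 of the 7 genes (Col4a1, Col4a2, Col5a1 and Col18a1) against 30.5% of all promoters, CCAAT in 3 (Col4a1, Col4a2 and Col1a2) against 34%, and TATAAA in Col1a2 only, against 12.9%. The windows of Col4a1 and Col4a2 share the 76 bases and the 1 GC box within them. The 250 bases of the 4 genes with GGGCGG were 60.4% to 75.2% G or C, against a median of 51.2% over all promoters.

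Intensities are linear array values without a unit, and their median per array was 60.2 to 66.6. A difference is log2 of ipsilateral over contralateral intensity after adding 15.8, with its standard error (SE) from limma's fit with the animal as a block (n = 3 pairs). Differences of dim genes come out too small on this scale, and intensities of different probe sets are not compared with each other. All 10 transcripts of muscle fibres on a marker list (among them Ckm, Acta1 and Ttn) were above the filter on dim probe sets, an intensity of about 42.4, and their summed intensity was 46147 to 51717 contralaterally and 42848 to 49145 ipsilaterally. Ratios of intensity along a transcript are a sign of RNA integrity. For actin, the 3' end over the middle was 2.77 in contralateral 4, 2.87 in ipsilateral 6 and 1.36 to 1.68 in the other libraries. This is the actin ratio meant below. Actin at the 3' over the 5' end was 1.54 in contralateral 4, 2.06 in ipsilateral 6 and 1.31 to 1.55 in the others. For Gapdh it was 1.02 to 1.16 in all libraries. Contralateral 4 thus stood out by the first ratio only. The number of arrays limits the precision.

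No collagen transcript passed the test for a difference between the muscles. Of the 17 probe sets, 16 passed the filter, with at least 1 for each gene. In limma's fit, 0 of the 16 had a Benjamini-Hochberg adjusted p under 0.05, against 0% of all 9519 tested probe sets, and 0 had an unadjusted p under 0.05, against 6.36%. Without animal 4, 286 probe sets of the array (3%) had an adjusted p under 0.05, 0 of them a collagen of this group, and 3 of the 16 (Col4a2, Col1a2 and Col5a2) had an unadjusted p under 0.05, against 15.9% of all tested probe sets in that fit. In the fit of all animals the adjusted p of the 16 ran from 0.776 to 0.994. Differences lay between -0.29 (Col18a1) and 0.36 (Col4a2), and 10 were above and 6 below 0. In the fit of all libraries the 95% intervals of the 16 differences together covered 0.633-fold to 1.66-fold, so a 2-fold difference in either direction lay outside each of them. A p above the threshold does not show equal levels, and smaller differences stay within these intervals.

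**Figure D1:**
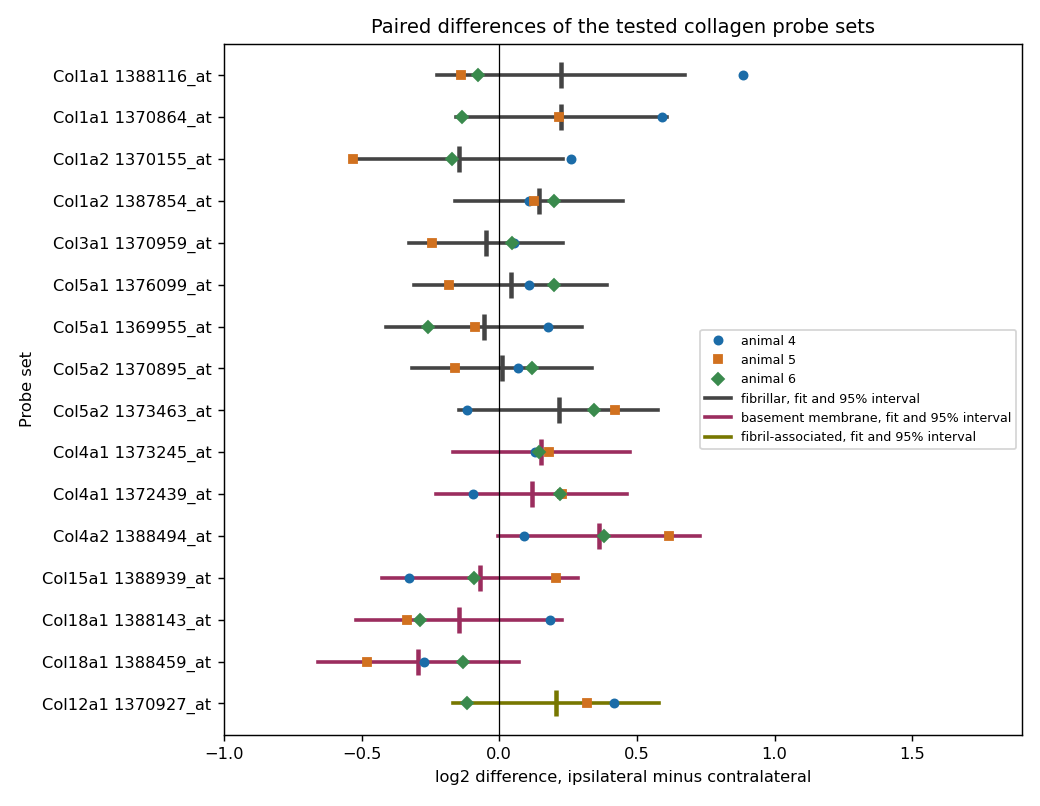
Log2 differences between ipsilateral and contralateral muscle (x axis) for the 16 tested collagen probe sets (y axis). Vertical ticks are limma's fitted differences, bars their 95% intervals, and symbols the differences within animals 4, 5 and 6; each bar includes 0, and the fitted differences run from -0.29 to 0.36.

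The animals did not share a direction. In animal 4, 12 of the 16 probe sets were higher ipsilaterally, in animal 5 it was 8, and in animal 6 also 8. A difference above 0 in each of the 3 animals was found for 3 probe sets (Col4a2 and 1 each of Col4a1 and Col1a2), where 12.3% of all tested probe sets had one. A difference below 0 in each was found for 1, of Col18a1, against 15.1%. In 0 of the 16 were the ipsilateral and contralateral intensities without overlap, against 10.5% of all tested probe sets in either direction.

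**Figure D2:**
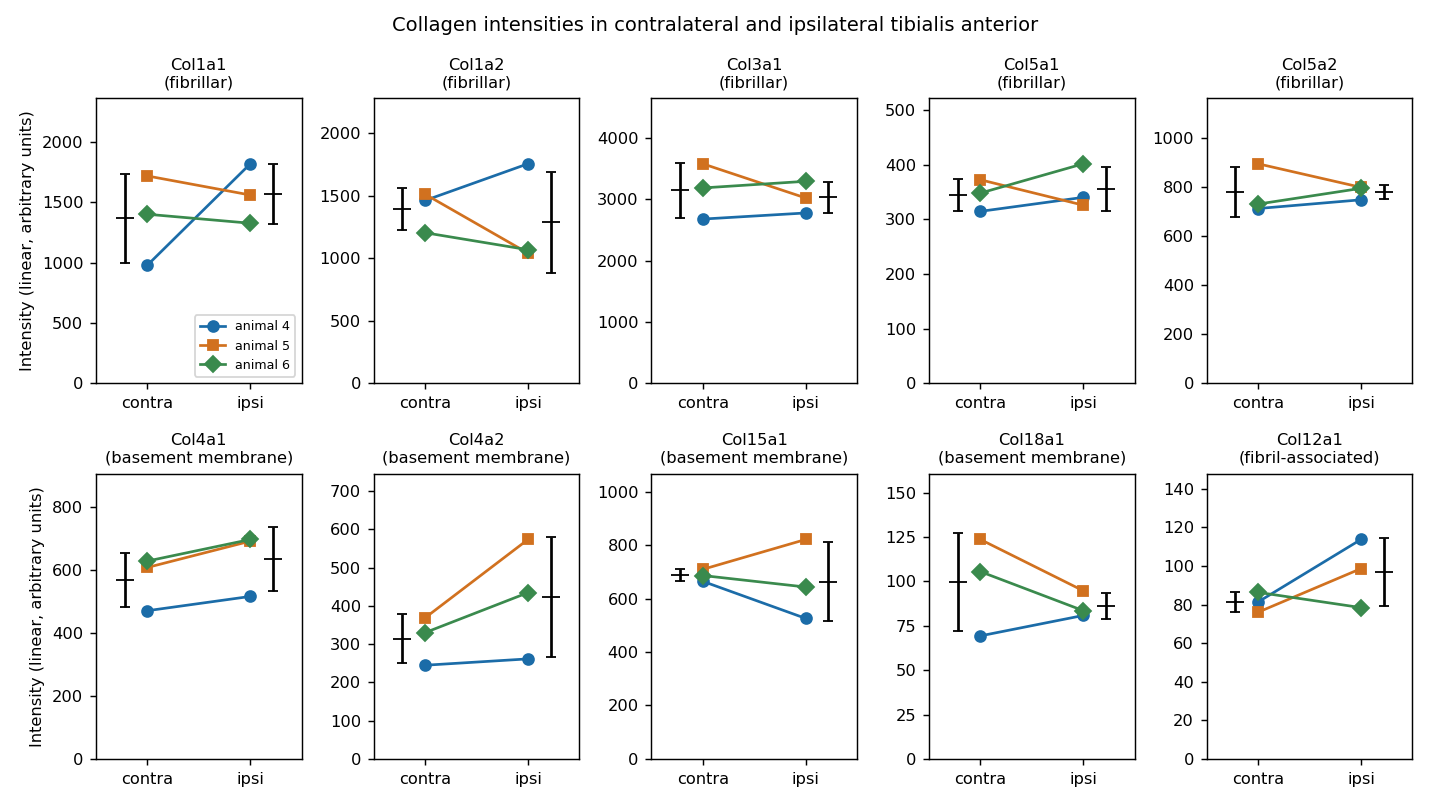
Linear intensity (y axis, from 0) of the brightest tested probe set of each of the 10 collagen genes in contralateral and ipsilateral muscle, with a line per animal and the mean ± SD of 3 libraries in black. The groups overlap in each panel, and the Col1a1 line of animal 4 climbs from 979 to 1820 while those of animals 5 and 6 go slightly down.

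Among the fibrillar collagens, Col1a1 encodes the chain that makes up most of type I collagen. Its brighter probe set (1388116_at) measured 979 in contralateral 4, 1719 in contralateral 5 and 1401 in contralateral 6, and 1820, 1560 and 1327 in the ipsilateral muscles of the same animals. Contralateral 4 was thus the lowest of the 6 libraries and ipsilateral 4 the highest, and the groups overlapped. The group means were 1366 ± 371 and 1569 ± 247 (SD, n = 3), and the difference was 0.22 (SE 0.20, 95% interval -0.23 to 0.67). Within animals it was 0.88, -0.14 and -0.08, and without animal 4 it was -0.11. Contralateral 4, the low library, was also 1 of the 2 with the high actin ratio, though its actin ratio of 3' over 5' end lay among the others. The part of RNA integrity in the result was not tested. The second Col1a1 probe set (1370864_at) differed by 0.22 (SE 0.17), with 0.59, 0.22 and -0.13 in the 3 animals.

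Col1a2 encodes the other chain of type I collagen, and its 2 probe sets, annotated with the same database entry, gave fitted differences of opposite sign. Probe set 1370155_at measured 1461, 1511 and 1203 in contralateral 4, 5 and 6 and 1754, 1040 and 1067 in ipsilateral 4, 5 and 6. Here ipsilateral 4 was again the highest library, while ipsilateral 5 and 6 were the lowest. Its difference was -0.15 (SE 0.17), with 0.26, -0.53 and -0.17 in animals 4, 5 and 6. Probe set 1387854_at measured 1058, 937 and 932 contralaterally and 1142, 1024 and 1072 ipsilaterally, higher in each animal but with overlap between the groups. Its difference was 0.14 (SE 0.14), with 0.11, 0.13 and 0.20 in the 3 animals. The spread between both probe sets of 1 transcript was therefore as large as either difference.

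Col3a1, the single chain of type III collagen, which forms the fine fibrils of the endomysium, was represented by 1 probe set. It measured 2676, 3577 and 3183 in contralateral 4, 5 and 6 and 2775, 3020 and 3291 in the ipsilateral muscles, and its means were 3145 ± 452 and 3029 ± 258 (SD, n = 3). The ipsilateral values lay inside the contralateral range. Its difference of -0.048 (SE 0.13, 95% interval -0.33 to 0.23) had the smallest SE of the 16 probe sets.

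The chains of type V collagen differed little. The brighter probe set of Col5a1 (1376099_at) went from 345 ± 29.1 to 356 ± 40.3 (SD, n = 3), a difference of 0.041 (SE 0.16), and the dimmer one (1369955_at) from 258 ± 29.4 to 249 ± 39.4, a difference of -0.056 (SE 0.16). Col1a2 and Col5a1 were the 2 of 6 genes with several tested probe sets whose fitted differences had opposite signs. For Col5a2, probe set 1370895_at had means of 778 ± 100.4 and 779 ± 28.2 and a difference of 0.0090 (SE 0.15). Its other probe set (1373463_at) measured 724, 638 and 652 in contralateral 4, 5 and 6 and 666, 859 and 833 ipsilaterally, so that animals 5 and 6 were higher by 0.42 and 0.35 and animal 4 was at -0.12. Its fitted difference was 0.22 (SE 0.16, adjusted p = 0.847 in limma).

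Col12a1, the fibril-associated type XII collagen of tendon and muscle sheaths, was near the filter. Probe set 1370927_at measured 81.3, 76 and 86.3 in contralateral 4, 5 and 6 and 114, 98.6 and 78.4 ipsilaterally. Animals 4 and 5 were higher ipsilaterally, by 0.42 and 0.32, and animal 6 was at -0.12, for a fitted difference of 0.21 (SE 0.17). The other Col12a1 probe set (1398321_a_at), at 4.9 to 23.8 in all libraries, was the 1 member below the filter and was not tested.

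Among the basement membrane collagens the type IV chains stood on the higher side in the ipsilateral muscle and Col18a1 on the lower side, both short of the threshold. Col4a2 measured 245, 369 and 330 in contralateral 4, 5 and 6 and 262, 574 and 435 in ipsilateral 4, 5 and 6. Both muscles of animal 4 were the lowest of the 6, and the ipsilateral muscles of animals 5 and 6 the highest. The means were 315 ± 63.4 and 423 ± 156 (SD, n = 3), and the difference of 0.36 (SE 0.16, 95% interval -0.0029 to 0.73) was 0.089, 0.62 and 0.38 within the animals. It was the largest among the 16, with an unadjusted p of 0.0515 (adjusted p = 0.776, limma). The adjusted p was 0.118 without animal 4 and 0.775 or more in the other alternatives. The difference was 0.15 when contralateral 4 and ipsilateral 6, the libraries with the high actin ratio, were left out and the pairing dropped. That fit sets ipsilateral 4 and 5 against contralateral 5 and 6. Animal 4, low in both muscles, then counts on the ipsilateral side only, so animal, side and RNA quality cannot be told apart in it.

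Col4a1, whose product joins that of Col4a2 in the same trimer, was higher by a smaller amount. Its brighter probe set (1373245_at) measured 471, 608 and 629 in contralateral 4, 5 and 6 and 516, 692 and 697 ipsilaterally, which is 0.13, 0.18 and 0.15 within the animals. These 3 differences were close to each other, although the level of animal 4 was below the others in both muscles. The fitted difference was 0.15 (SE 0.14, 95% interval -0.17 to 0.47). The second probe set (1372439_at) differed by 0.12 (SE 0.15), with -0.097, 0.23 and 0.22 in the 3 animals. With the 2 libraries of high actin ratio left out and the pairing dropped, the 2 probe sets gave -0.047 and -0.084. There too animal 4, with its low level, was left on the ipsilateral side only.

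Col15a1, which encodes the type XV chain found at the interface of basement membrane and interstitial matrix, had closely similar contralateral values of 665, 709 and 686 and a wider ipsilateral spread of 526, 821 and 643. Ipsilateral 4 was the lowest library and ipsilateral 5 the highest. Its difference was -0.071 (SE 0.16), with -0.33, 0.21 and -0.091 in the 3 animals. Col18a1, the type XVIII chain, was dim. Its brighter probe set (1388143_at) measured 69.3, 124 and 106 contralaterally and 80.8, 94.7 and 83.5 ipsilaterally, a difference of -0.15 (SE 0.17) with 0.18 in animal 4. The dimmer one (1388459_at) measured 42.3, 110 and 74.5 contralaterally and 32.3, 74.3 and 66.6 ipsilaterally. It was lower by 0.27, 0.48 and 0.13 within animals 4, 5 and 6 on the log2 scale, and its fitted difference was -0.29 (SE 0.16, adjusted p = 0.781 in limma). With the 2 libraries of high actin ratio left out and the pairing dropped it was -0.69 (SE 0.31, unadjusted p = 0.0489, adjusted p = 0.981 in limma). Animal 4, whose values of this probe set were the lowest on each side, was again left on the ipsilateral side only.

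As classes, fibrillar and basement membrane collagens differed little from each other and from the rest of the array. Over the brightest probe set of each gene, the median difference was 0.0090 for the 5 fibrillar (-0.0025 after quantile normalization) and 0.040 for the 4 basement membrane genes, beside -0.016 for all tested probe sets. Leaving out 1 animal moved the fibrillar median to between -0.098 (without animal 4) and 0.094 (without animal 5) and the basement membrane median to between 0.042 and 0.11. Within animals 4, 5 and 6 the fibrillar median was 0.11, -0.18 and 0.048, and the basement membrane median 0.11, 0.19 and 0.027. The basement membrane median minus the fibrillar one was thus 0.00084, 0.38 and -0.021 in these animals, so that the classes parted in animal 5 alone. The mean of this class difference over the animals was 0.12 ± 0.22 (SD, n = 3), smaller than its spread. The basement membrane median also joined genes of opposite sign, the type IV pair above 0 and Col15a1 and Col18a1 below it.

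Ratios between chains within a library remove what all probe sets of an array share. The ratio of Col1a1 to Col1a2 was higher ipsilaterally by 0.62, 0.39 and 0.093 in animals 4, 5 and 6 on the log2 scale, a mean of 0.37 ± 0.27 (SD, n = 3), with the brightest probe set of each. That of Col1a1 to Col3a1 differed by 0.83, 0.11 and -0.13. The ratio of Col4a1 to Col4a2 differed by 0.040, -0.43 and -0.24, a mean of -0.21 ± 0.24, and that of Col5a1 to Col5a2 by 0.039, -0.023 and 0.079. With the other Col5a2 probe set (1373463_at) the type V ratio differed by 0.23, -0.60 and -0.15. These ratios thus depend on the probe sets used, as does that of Col1a1 to Col1a2, whose Col1a2 probe sets disagree. The other Col1a2 probe set (1387854_at) was higher by 0.13 and 0.20 in animals 5 and 6, where Col1a1 was at -0.14 and -0.078. With it the ratio of Col1a1 to Col1a2 was lower ipsilaterally in these 2 animals and higher in animal 4.

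Across the 6 libraries, which are 2 muscles each of 3 animals and share 1 array platform, log2 values of Col4a1 and Col4a2 had a Pearson correlation of 0.91. This was the highest among the 6 pairs of basement membrane genes, whose median was 0.54. The 10 pairs of fibrillar genes had a median of 0.34, from -0.32 for Col1a2 with Col3a1 to 0.81 for Col3a1 with Col5a2. Between the classes the median was 0.36, from -0.82 for Col1a2 with Col4a1 to 0.85 for Col3a1 with Col18a1. These are descriptions over 6 libraries, and so are the values of r that follow. Those are the highest found in a search of many genes, so they are high partly through the search. Of 7107 other genes, those whose values most resembled the mean of the fibrillar class were Prelp (r = 0.99), a matrix proteoglycan that binds collagen, Akap1 (0.99), Shld2 (0.99), Med16 (0.98) and Bcl9 (0.98). Those most like the mean of the basement membrane class were Ptpn21 (0.995), Cx3cl1 (0.99), a chemokine of endothelium, Notch3 (0.99), a receptor of vascular smooth muscle and pericytes, Capn2 (0.98) and Spire1 (0.98). In the latter group the shared pattern was mainly between animals, with both muscles of animal 4 low: contralateral and ipsilateral Notch3 were 62.6 and 66.3 there, 144 and 167 for animal 5, and 132 and 126 for animal 6.

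Other collagen genes and the enzymes and partners of collagen were read from 5 lists. In limma's fit 0 genes of these lists had an adjusted p under 0.05, and 4 had an unadjusted p under 0.05, all higher ipsilaterally, where 3.57% of all tested probe sets had such a p and were higher and 2.78% were lower. Without animal 4 the number at the unadjusted threshold was 4 of 10 other collagens, 3 of 18 genes of folding and secretion and 2 of 4 receptors. It was 2 of 5 genes of processing and 1 of 11 basement membrane partners, where 15.9% of all tested probe sets had such a p. In that fit 2 genes of the lists had an adjusted p under 0.05, Col7a1 and Lox. It rests on animals 5 and 6 with 1 residual degree of freedom, so these p-values depend mainly on the variance prior. Of 33 listed other collagens, 19 were on the array and 11 tested. The median of these was 0.049 (-0.028 to -0.0050 on leaving out any 1 animal), and 1 had an unadjusted p under 0.05. With no filter on dim probe sets all 19 were tested and 4 had such a p, against 5.44% of the 15866 probe sets. The 1 gene with such a p among the 11 tested with the filter was Col8a2, a short-chain collagen. It measured 65.9, 57.8 and 63.1 in contralateral 4, 5 and 6 and 106, 96.8 and 86.8 ipsilaterally. The groups did not overlap, as in 4.74% of tested probe sets in this direction, and the difference was 0.52 (SE 0.15, adjusted p = 0.545). Col4a5, a further type IV chain, differed by 0.35 (SE 0.19), with -0.12 in animal 4. Col2a1, the cartilage collagen, differed by 0.34 (SE 0.18) at intensities close to the filter. Col7a1, the chain of anchoring fibrils, differed by -0.49 (SE 0.25), with 0.35, -1.09 and -0.72 in the 3 animals, and by -0.91 (SE 0.21, adjusted p = 0.0385 in limma) without animal 4.

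Of the 14 genes of procollagen processing and crosslinking, 5 were tested. Their median was 0.27 (animals 4, 5 and 6: -0.030, 0.58 and 0.27), it was 0.072 without animal 5 and 0.33 without animal 4, and 2 genes had an unadjusted p under 0.05. Lox, lysyl oxidase, which starts the covalent crosslinking of fibrils, measured 130, 86.6 and 104 in contralateral 4, 5 and 6 and 174, 261 and 145 ipsilaterally. The groups did not overlap, and its difference was 0.74 (SE 0.22, adjusted p = 0.545), with 0.38, 1.43 and 0.42 in the animals. Without animal 4 it was 0.93 (SE 0.22, adjusted p = 0.0415 in limma). The other Lox probe set gave 0.59 (SE 0.20). Bmp1, the protease that removes the C-propeptide of fibrillar procollagens, measured 68.4, 79.7 and 85.4 contralaterally and 106, 110 and 106 ipsilaterally, again without overlap, a difference of 0.40 (SE 0.15, adjusted p = 0.730). Loxl1, a relative of Lox, differed by 0.27 (SE 0.20), and Pcolce, which enhances Bmp1, by -0.17 (SE 0.15). Without animal 5, 0 genes of this list had an unadjusted p under 0.05, and without animal 6 it was 1.

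Of 21 listed genes of procollagen folding and secretion, 18 were on the array and tested. Of these, 7 had a difference above 0 and 11 below it, with a median of -0.064 beside -0.016 for all tested probe sets, and 0 had an unadjusted p under 0.05. Each of the 3 animals was lower ipsilaterally for 5 of these genes and higher for 2, against 15.1% and 12.3% of all tested probe sets. P4ha1, a catalytic subunit of prolyl 4-hydroxylase, measured 296, 319 and 283 contralaterally and 273, 213 and 233 ipsilaterally, a difference of -0.31 (SE 0.16). Mia3, which helps to load procollagen into secretory carriers, differed by -0.31 (SE 0.16) and the isomerase Fkbp14 by -0.29 (SE 0.15), whereas Fkbp10, a related isomerase, differed by 0.32 (SE 0.16). The median was 0.019 without animal 5.

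Of the laminins and other partners of the basement membrane, 11 of 18 were tested. Their median was 0.038, and 1 had an unadjusted p under 0.05. Nid1, nidogen, which links the laminin and type IV collagen networks, measured 508, 543 and 770 in contralateral 4, 5 and 6 and 669, 726 and 1111 ipsilaterally. It was higher in each animal, by 0.39, 0.41 and 0.52, with overlap between the groups, and its fitted difference was 0.44 (SE 0.14, unadjusted p = 0.0125, adjusted p = 0.587). The other Nid1 probe set gave 0.048 (SE 0.15). Sparc, a collagen-binding glycoprotein, differed by 0.28 (SE 0.14), its other probe set by -0.0061, Lama2, the main laminin alpha chain of muscle, by 0.32 (SE 0.19), and Lama5 by -0.19 (SE 0.20). The Nid1 call at the unadjusted threshold was lost without the pairing by animal and without animal 5. Collagen receptors had 4 of 11 genes tested and a median of 0.18. Ddr1 differed by 0.32 (SE 0.16), Ddr2 by 0.086 (SE 0.16), Itgb1 by 0.19 (SE 0.17) and Cd44 by 0.17 (SE 0.19), whose other probe set gave -0.12.

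**Figure D3:**
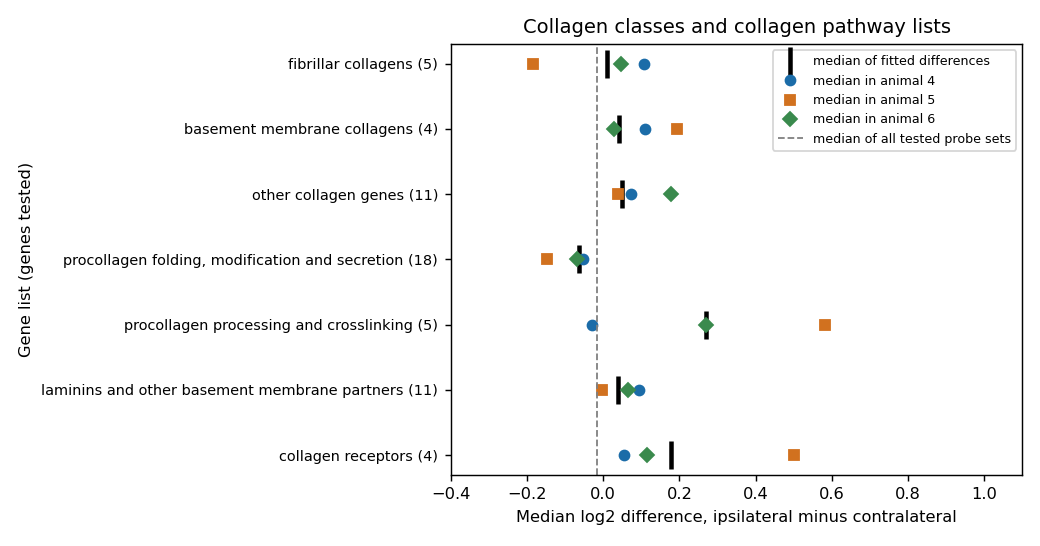
Median log2 difference between ipsilateral and contralateral muscle (x axis) for the collagen classes and 5 pathway lists (y axis, number of genes tested in brackets), from the fit (ticks) and within each animal (symbols). The dashed line is the median of all tested probe sets, -0.016; the tick of the processing and crosslinking list lies at 0.27, with animal 4 at -0.030, and that median was 0.072 without animal 5.

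Marker genes of the cells that make collagen were set beside these values. In bulk muscle, fewer cells of a type and less RNA per cell cannot be told apart. The counts at an unadjusted p under 0.05 that follow stand against 3.57% of all tested probe sets higher and 2.78% lower. Those of the same direction in all 3 animals stand against 12.3% higher and 15.1% lower. Of single tested probe sets, 10.5% had groups without overlap in either direction. No such share is given for sums of several markers. All 11 endothelial markers on the array were tested, and their summed intensity was 1546 to 1661 contralaterally and 1679 to 2068 ipsilaterally, without overlap, with a median difference of 0.18. Of the 11, 4 were higher and 0 lower in all 3 animals, and 2 had an unadjusted p under 0.05, both higher. Ipsilateral 5, the library with the most Col4a2, also had the highest endothelial sum. Fibroblast markers, with collagens left out, had 12 of 14 genes tested and sums of 12518 to 13122 contralaterally and 11660 to 13092 ipsilaterally, with a median of -0.016. Of the 12, 1 had an unadjusted p under 0.05, being higher, and 2 were higher and 3 lower in all 3 animals. In contralateral 4, where Col1a1 was lowest, the fibroblast sum was the highest of the 6 libraries, at 13122. The margin was small, as ipsilateral 6 was at 13092 and ipsilateral 4, with the highest Col1a1, at 13055. It also rested on the largest parts of the sum, Gsn and Dcn. These were at 4086 and 3036 in contralateral 4 and at 3669 and 2845 in ipsilateral 4. Over the other fibroblast markers the sum was highest in ipsilateral 4. Tendon markers, 5 on the array and 4 tested, had sums of 446 to 652 contralaterally and 923 to 1409 ipsilaterally, without overlap and highest in ipsilateral 4, the library with the highest Col1a1. Of the 4, 3 were higher in all 3 animals and had an unadjusted p under 0.05, with a median of 0.75. Most of the rise in animals 5 and 6 was Thbs4, at 214 and 160 contralaterally and 547 and 596 ipsilaterally. In animal 4 Fmod rose the most, from 218 to 621. Comp rose in animals 4 and 6 and fell in animal 5, from 48.4 to 38.3. Without Thbs4 the tendon sums of the groups overlapped. Smooth muscle and pericyte sums (8 of 11 markers tested) overlapped, at 1406 to 1936 and 1498 to 1803, with a median of -0.018, 1 marker higher and 2 lower in all 3 animals, and 0 with an unadjusted p under 0.05. Adipocyte sums (3 of 8 markers tested) overlapped between the groups but were higher ipsilaterally within each animal, at 1087, 1367 and 1699 in contralateral 4, 5 and 6 and 1551, 2463 and 2346 in the ipsilateral muscles. All 3 tested adipocyte markers were higher in all 3 animals with an unadjusted p under 0.05, with a median of 0.52. Macrophage and immune sums (6 of 9 tested) were 3823 to 4066 contralaterally and 2643 to 3699 ipsilaterally, and those of Schwann cells and nerve (4 of 9 tested) 728 to 850 and 923 to 982, both without overlap. The median of the immune markers was -0.34, with 4 of 6 lower in all 3 animals and 3 lower with an unadjusted p under 0.05. That of the Schwann cell and nerve markers was 0.16, with 2 higher and 1 lower in all 3 animals and 1 in each direction with such a p. The 10 muscle fibre markers had a median of -0.17, 1 higher and 2 lower in all 3 animals and 1 in each direction with such a p. In no list was a marker at 0 in any library, but some were below the filter in all of them. These were 3 Schwann cell and nerve markers, 2 of fibroblasts and 1 each of the adipocyte, immune and smooth muscle lists. The tested adipocyte markers were Cfd, Fabp4 and Scd, while Plin1 (25 to 46) and Lep (2 to 3.9) were too dim. Fabp4, at 545 to 1608, was the largest part of the sum, and its call was lost without the pairing by animal. Plin1 was lower ipsilaterally in animal 5 and higher in animals 4 and 6. Most of the Schwann cell and nerve sum was Pmp22, at 436 to 645, and without it the sums of the groups overlapped. Most of the immune sum was Cd74, at 1276 to 2075, and Lyz2, at 939 to 1577. The part of these cells in the collagen values was not tested.

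**Figure D4:**
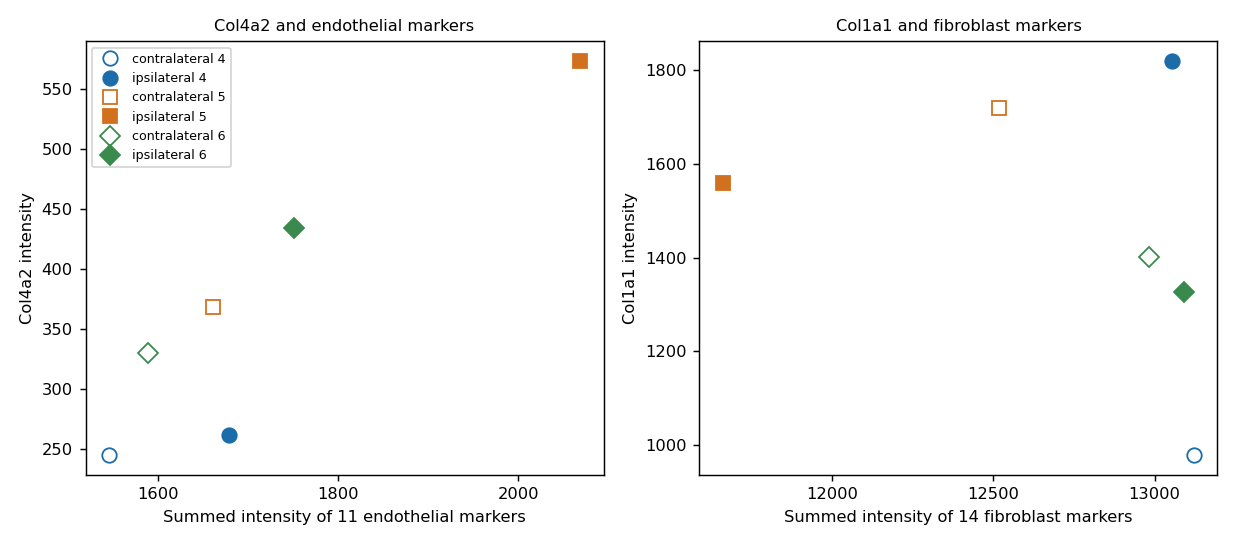
Intensity of Col4a2 against the summed intensity of 11 endothelial markers (left) and of Col1a1 against that of 14 fibroblast markers without collagens (right), 1 point per library; the axes do not start at 0. Open symbols are contralateral and filled ones ipsilateral. At left, ipsilateral 5 is highest on both axes. At right, contralateral 4 has the lowest Col1a1 and the highest fibroblast sum, by a small margin that rests on Gsn and Dcn.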

How the data were processed

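Total RNA of 6 tibialis anterior muscles was measured on 1 rat expression array each. Samples were grouped by their titles, in which Cont was read as contralateral, and the number gives the animal. The deposited table holds 1 linear intensity per probe set and array, and its trimmed mean is about 150 on every array, from the values; the software the authors used for these intensities is not stated in the labels. A platform annotation, which can be old, named 12789 of 15923 probe sets with 1 symbol, 312 with several and 2822 with none. Of the 12789, 12756 were found in a gene table of GRCr8, used for names, which changed 1 symbol.

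Values were used as log2(intensity + 15.8), the 20th percentile of all values. Array medians lay within 0.117 (limit 0.2), so no further normalization was applied. Non-control probe sets (57 controls left out) with a mean above the 40th percentile, 9519, were tested with limma 3.58.1 in R 4.3.3 (lmFit, eBayes with a trend on intensity) and a fixed term for each animal, 2 residual and 7.47 prior degrees of freedom, and Benjamini-Hochberg adjustment over all 9519; the test was checked on simulated data. The pairing comes from the design, both muscles being of 1 animal; over probe sets, deviations from group means were correlated at -0.041, 0.072 and 0.13 in animals 4, 5 and 6. Lists are described by the brightest probe set per gene. Named were all members, the 4 genes of each pathway list with the smallest p, and the 5 genes most like each class. The members and lists were chosen with earlier results of these data known. Alternatives covered the pseudocount, normalization, filter, block, variance prior, choice of probe set and each animal left out; leaving out 2 libraries with a high actin ratio was added after seeing the data. Figures were drawn with matplotlib 3.10.9.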

Additional observations from a re-analysis of the deposited data

Results flagged for a closer look

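Col10a1, a short-chain collagen, was too dim for the test and so outside the comparison, but its lowest ipsilateral value was above both its highest contralateral value and the 42.4 of the filter. It measured 27.1, 31 and 21.1 in contralateral 4, 5 and 6 and 46.4, 52.6 and 57.4 ipsilaterally, a ratio of means of 1.97. Of the 12 dim collagen probe sets it was the 1 that met both conditions, as did 0.158% of all 6347 dim probe sets. A dim probe set has a low mean over all libraries. Ipsilateral values above the filter therefore require low contralateral ones, so the separation is partly set by this choice. The share describes how rare the choice is and does not test a difference.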

How the results depend on the processing

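No collagen probe set had an adjusted p under 0.05 in limma under any of the alternatives run, and of 192 values of single members, 15 changed sign, in 9 probe sets. Over the whole array 0 probe sets passed in the paired fit; leaving out 1 animal gave 0 to 286, the 286 without animal 4, and 1 passed without the pairing, contralateral 4 and ipsilateral 6. At an unadjusted p under 0.05, 1 member passed (Col4a2) without the filter and 1 (Col4a2) with a robust variance prior, 0 to 3 on leaving out an animal (without animal 4: Col4a2, Col5a2 and Col1a2, where 15.9% of all probe sets passed), and 1 (Col18a1) without the 2 libraries. Leaving out 1 animal in turn gave -0.11 to 0.40 for Col1a1 1388116_at, -0.35 to 0.045 for Col1a2 1370155_at, -0.098 to 0.050 for Col3a1, -0.038 to 0.15 for Col5a1 1376099_at, -0.17 to 0.045 for Col5a1 1369955_at, -0.046 to 0.094 for Col5a2 1370895_at and -0.21 to 0.058 for Col15a1. Without the pairing and the 2 libraries, Col1a2 1370155_at gave 0.0030, Col5a1 1376099_at -0.11, Col5a1 1369955_at 0.017, Col5a2 1370895_at -0.064, Col4a1 1373245_at -0.047, Col4a1 1372439_at -0.084 and the basement membrane median -0.066. Quantile normalization gave -0.0025 for Col5a2 1370895_at.

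Leaving out 1 animal, medians ran from -0.028 to -0.0050 for other collagens, -0.12 to 0.019 for folding and -0.031 to 0.064 for basement membrane partners, and genes with an unadjusted p under 0.05 numbered 1 to 4, 0 to 3 and 0 to 1 in these lists, 0 to 2 in processing and 0 to 2 in receptors. Without the filter, 4 of 19 other collagens had such a p, against 5.44% of all probe sets. Without the pairing by animal, 0 basement membrane partners did (Nid1 was lost), and the genes of the other 4 lists with such a p were the same ones; among the markers Kdr, Fabp4 and Mbp lost it and Ckm gained it. The cause of these shifts was not tested, and with 3 animals the 95% intervals of members reached 0.633-fold and 1.66-fold.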

Other observations

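Col11a1, a minor fibrillar collagen of cartilage, had 2 probe sets, both below the filter and chosen after their values were seen. One (1384211_at) measured 5.8, 0.3 and 3.6 in contralateral 4, 5 and 6 and 12.4, 11.8 and 14.9 ipsilaterally, and the other (1384931_at) 8.2, 6.4 and 10.2 contralaterally and 1.1, 1.8 and 3.3 ipsilaterally. Each separated the groups without overlap, in opposite directions. All values of both probe sets were below the 15.8 that was added to intensities before taking log2. The separation is therefore not read as a difference in Col11a1. No share of dim probe sets that separate the groups in this way is given. Col19a1, a fibril-associated collagen also below the filter, measured 34.1, 8.6 and 18.8 contralaterally and 21.6, 112 and 67.6 ipsilaterally, with animals 5 and 6 higher and animal 4 lower.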
